A study of Arabidopsis thaliana with 6 samples.

Results

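The 38 genes described here build, export or regulate the plant cuticle. They were chosen by gene identifier, as genes of wax synthesis and elongation, cutin synthesis, export and their regulators together with PDF1, and they are 38 of the 33341 genes listed in the count files. All 38 passed the filter on low counts, and 20013 genes were tested in all. RNA was sequenced from GFP-positive nuclei sorted by fluorescence (FANS RNA-seq) from inflorescences at stage 5 of flower development. All plants were of the Ler ecotype and carried pAP1::AP1-GR in the ap1 cal mutant background, the system in which flowers are induced together by daily treatment of the main inflorescence with 2 µM dexamethasone (DEX), here for 4 days. In the AP3 libraries (X13, X16 and X74) the nuclear envelope fusion protein NTF with GFP was driven by the AP3 promoter (pAP3:NTF), and in the AG libraries (X14, X71 and X26) by the second intron of AG with a minimal 35S promoter (iAG:NTF). Each domain was represented by 1 line in the microscopy of the study, and the labels do not say whether the 3 libraries of a domain came from separate plantings, so the p-values measure only the spread between these libraries.

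The cuticle is the lipid layer that epidermal cells lay down on the surface of aerial organs. Its wax is made from very-long-chain fatty acids, which the elongase of the endoplasmic reticulum builds in a repeated cycle of condensation, reduction, dehydration and a further reduction, and which are then turned into alkanes, alcohols, ketones and esters. Its cutin is a polyester of hydroxylated fatty acids and glycerol, polymerised outside the cell. In flowers, the cuticle keeps organs from fusing and forms the ridges of the petal surface. AP3 is active where petals and stamens form and AG where stamens and carpels form, so both domains include the stamen region.

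The libraries held 28808948 to 42089156 counts, with 2.39% to 4.56% on organelle genes, which were removed. A read was found for 26489 genes in X71 and 26717 in X74, against 22923 to 23439 in X13, X16, X14 and X26. X71 and X74 are the libraries absent from the authors' normalized table. The AP3 transcript, a check of the labels, was 5.12-fold higher in AP3 nuclei (edgeR adjusted p = 0.0216). The AG transcript did not mark the AG libraries. It had 41.5, 75.4 and 94.3 CPM (counts of read pairs scaled to library size) in the AP3 libraries X13, X16 and X74, against 38.4, 41.1 and 14.2 CPM in the AG libraries X14, X71 and X26 (log2 fold change 1.17 for AP3 over AG, edgeR adjusted p = 0.141). Its ratio to the AP3 transcript was 0.329 to 0.395 in the AP3 libraries and 0.661 to 1.17 in the AG libraries. Among 10 epidermis markers, all had a positive log2 fold change and 3 were called higher in AP3 nuclei. Over all genes tested, 1.36% were called higher and 6.4% lower, which also applies to the marker counts that follow. Of 18 vascular markers, 13 were called lower and none higher, with a summed level of 234 to 295 CPM in AP3 libraries and 598 to 703 CPM in AG libraries. Of 5 markers of dividing cells, 1 was called higher, with a summed level of 5093 to 5262 CPM in AP3 libraries and 2991 to 3943 CPM in AG libraries.

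Of the 38 cuticle genes, 7 were higher in AP3 nuclei, 4 were lower and 27 did not pass the test (edgeR adjusted p under 0.05). The 7 higher genes were PDF1, HTH, GPAT4, BDG, KCS20, ABCG11 and FOP1, and the 4 lower genes were MAH1, CER4, WSD1 and SHN3. Over all genes tested, 1.36% were called higher and 6.4% lower, and 7.76% in either direction, beside 18.42% and 10.53% of the cuticle genes and 28.95% in either direction. The 3 AP3 and 3 AG values did not overlap for 16 genes that were higher in AP3 libraries, where 10.9% of all genes did the same, and for 7 that were lower, where 15.0% of all genes did. The median log2 fold change of the cuticle genes was 0.31, against 0.03 over all genes tested. DESeq2 called 15 cuticle genes higher and 6 lower, where it called 2.94% and 9.23% of all genes. The count of higher genes was 1 without X71, 2 without X16 and 11 without X14, and 1 in the 4 libraries of the authors' normalized table, while the count of lower genes was 3 or 4 in each of these. These are bulk samples, in which fewer cells of a type and less RNA per cell cannot be told apart.

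**Figure D1:**
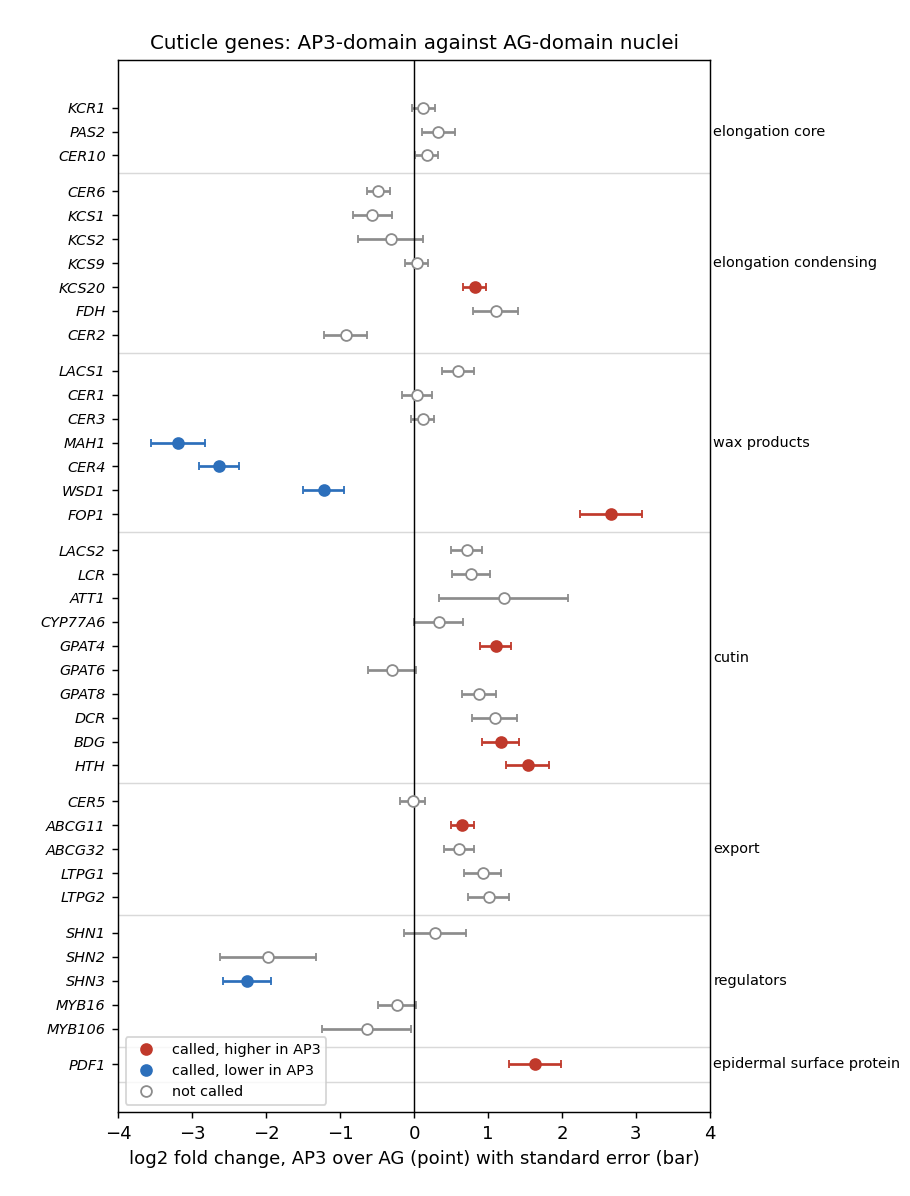
Log2 fold change of each of the 38 cuticle genes, AP3 over AG (horizontal axis), with its standard error as a bar, for 3 AP3 and 3 AG libraries, grouped by role from the elongase at the top to PDF1 at the bottom. Filled points are called genes, red where higher in AP3 and blue where lower. The cutin group lies mostly right of 0, and the wax product group holds the lowest value (MAH1, -3.19) and the highest (FOP1, 2.66).

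The epidermis carries a short promoter element, the L1 box, which was described in the PDF1 promoter and is bound by the homeodomain proteins ATML1 and PDF2. Exact matches to TAAATGCA or TAAATGTA were searched on both strands of the reference sequence upstream of the annotated gene start. Within 1000 bases, 10 of the 38 cuticle genes held a match (26.3%), against 15.8% of 27443 protein-coding genes, and within 250 bases 3 held one (7.89%), against 4.49%. The 10 genes included 4 of the 7 genes called higher (FOP1, BDG, ABCG11 and PDF1), none of the 4 called lower and 6 of the 27 not called. PDF1 is counted in these shares although its match was known beforehand, since the box was described in its promoter. The stretches around the matches of those 4 genes and of FDH and LTPG1 are shown. These are the 6 genes with a match whose AP3 values all lay above their AG values. CER6 and SHN2, which also held a match, had AP3 values below all AG values. KCS9 and GPAT6 held a match and had overlapping values. A relation of the box to the direction was not tested. The stretches shown were thus chosen by direction. The stretches are read 5′ to 3′ on the strand of the gene, with the 8 matching bases in capitals. The sequence is from the RefSeq TAIR10.1 assembly of the Columbia ecotype. A match is a description of the letters and not a measured site.
PDF1, chr2:17828064-17828131, minus strand: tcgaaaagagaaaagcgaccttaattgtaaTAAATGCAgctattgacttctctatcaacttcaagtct
ABCG11, chr1:6142290-6142392, plus strand: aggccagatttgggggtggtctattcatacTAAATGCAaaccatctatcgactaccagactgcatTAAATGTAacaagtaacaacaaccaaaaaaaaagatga
BDG, chr1:24034157-24034224, minus strand: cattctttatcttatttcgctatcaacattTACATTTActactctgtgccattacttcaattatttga
FOP1, chr5:21660284-21660351, minus strand: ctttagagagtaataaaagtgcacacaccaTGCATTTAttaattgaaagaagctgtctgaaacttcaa
FDH, chr2:11173295-11173362, minus strand: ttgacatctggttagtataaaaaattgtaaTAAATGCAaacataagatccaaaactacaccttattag
LTPG1, chr1:9740211-9740278, plus strand: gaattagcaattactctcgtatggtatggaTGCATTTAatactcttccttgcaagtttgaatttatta
The matches begin 453 bases upstream of the gene start in PDF1, 82 and 47 in ABCG11, 520 in BDG, 954 in FOP1, 54 in FDH and 267 in LTPG1. None lay within another annotated gene of the count files. The GCC box (GCCGCC), bound by many AP2/ERF factors, the family of the SHN proteins, was present within 1000 bases of 5 genes (13.2%), namely PAS2, MAH1, CYP77A6, GPAT4 and GPAT6, against 8.44% of all genes.

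PDF1 (AT2G42840, chr2:17826071-17827648), which encodes a proline-rich protein of the outermost cell layer, was the most abundant of the 38 genes. It had 3467, 3453 and 2897 CPM in the AP3 libraries X13, X16 and X74, against 1491, 1085 and 583 CPM in the AG libraries X14, X71 and X26. All AP3 libraries lay above all AG libraries, and X26 was the lowest. The difference was 3.11-fold (log2 fold change 1.64 ± 0.35 SE, edgeR adjusted p = 0.0232). The call was lost without X16 (adjusted p = 0.0744) and without X71 (adjusted p = 0.0930), and in the 4 libraries of the authors' normalized table (adjusted p = 0.111). Per kilobase of gene, introns included, PDF1 reached 2074 CPM in AP3 nuclei and 667 CPM in AG nuclei, far above the next genes.

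By this level per length, LTPG1 and HTH followed PDF1 in AP3 nuclei, with 139 and 129 CPM per kb, whereas CER1 (120 CPM per kb) and LTPG1 (72.8 CPM per kb) followed it in AG nuclei. MAH1, at rank 32 of 38 in AP3 nuclei, was at rank 6 in AG nuclei. At the low end of both domains lay SHN2, MYB106 and ATT1, which are read here with the counting error of few reads, since ATT1 had 7 to 85 reads per library. Read pairs were counted over whole genes, so that long introns add to the level of a gene.

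**Figure D2:**
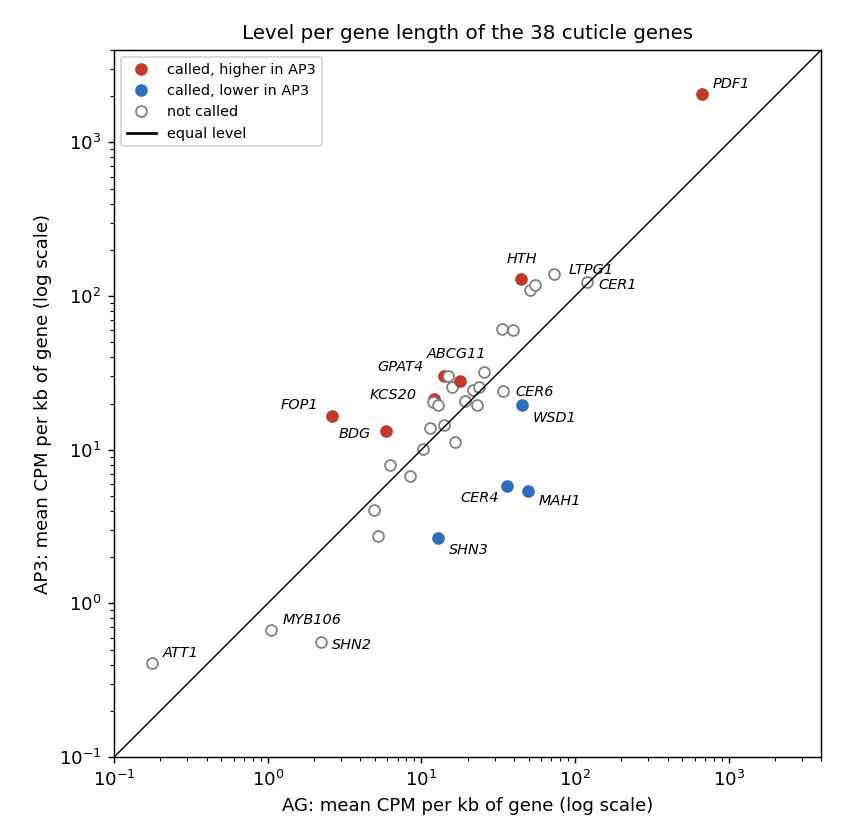
Mean level of each of the 38 cuticle genes per kilobase of gene, in AP3 nuclei (vertical axis, CPM per kb, log scale) and AG nuclei (horizontal axis, CPM per kb, log scale), 3 libraries each, with the line of equal level. PDF1 stands at 2074 and 667 CPM per kb, and MAH1 and CER4 lie farthest below the line among well expressed genes.

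The 3 enzymes that complete each elongation cycle after condensation gave no call. KCR1, the ketoacyl reductase, averaged 53.3 ± 4.59 CPM in AP3 nuclei and 48.9 ± 2.78 CPM in AG nuclei (SD, n = 3 each). PAS2, the dehydratase, averaged 75.6 ± 14.2 CPM in AP3 nuclei and 60.1 ± 13.98 CPM in AG nuclei, and CER10, the enoyl reductase, averaged 53.0 ± 3.57 CPM in AP3 nuclei and 47.0 ± 4.04 CPM in AG nuclei. The log2 fold changes of the 3 were 0.13 to 0.33, and the values of the domains overlapped for each gene.

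The condensing enzymes, which set the chain length, differed among themselves. The shares called over all genes were 1.36% higher and 6.4% lower. KCS20 (AT5G43760, chr5:17585523-17588733) was the one called member of the 7 genes of this step, with 69.3, 68.7 and 68.5 CPM in AP3 libraries X13, X16 and X74, against 44.9, 37.0 and 35.1 CPM in AG libraries X14, X71 and X26. It was 1.76-fold higher in AP3 nuclei (log2 fold change 0.82 ± 0.16 SE, edgeR adjusted p = 0.0150), and its AP3 values hardly varied (SD 0.425 CPM, n = 3). The call was lost without X16 (adjusted p = 0.0628), without X71 (adjusted p = 0.0639) and in the 4 libraries of the authors' table (adjusted p = 0.105). KCS2, whose protein is 86.1% identical to that of KCS20 over the alignment, averaged 20.8 ± 7.20 CPM in AP3 nuclei and 25.9 ± 14.9 CPM in AG nuclei and was not called. The ratio of KCS20 to KCS2 overlapped between the domains. Only uniquely mapped reads were kept, so reads from stretches the pair share would not be in either count.

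FDH (FIDDLEHEAD, also KCS10), whose loss makes floral organs fuse, had 348, 310 and 277 CPM in AP3 libraries X13, X16 and X74, against 204, 148 and 82.3 CPM in AG libraries X14, X71 and X26. Its values did not overlap, but it did not pass the test (log2 fold change 1.10 ± 0.31 SE, edgeR adjusted p = 0.0632). It passed without X14 (adjusted p = 0.0283), with DESeq2 (adjusted p = 0.00311) and without the filter on low counts (adjusted p = 0.0115). CER6, the main condensing enzyme of stem wax, averaged 63.3 ± 6.76 CPM in AP3 nuclei and 88.6 ± 4.44 CPM in AG nuclei (edgeR adjusted p = 0.109). The ratio of FDH to CER6 was 3.90 to 5.72 in the AP3 libraries and 0.971 to 2.34 in the AG libraries. The pair lay on opposite sides with no overlap in either gene, so their ratio could not overlap and adds nothing to the 2 genes. Neither gene was called in the main test. CER2, which acts with CER6 on the longest chains, averaged 5.43 ± 1.51 CPM in AP3 nuclei and 10.3 ± 1.50 CPM in AG nuclei, with an edgeR adjusted p of 0.101 and a DESeq2 adjusted p of 0.0280. It overlaps by 96 bases a gene on the other strand, ATR1, which had 165 CPM in AP3 nuclei and 156 CPM in AG nuclei, and strand was not used in counting. KCS1 and KCS9 were not called, with log2 fold changes of -0.57 and 0.03.

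The genes that turn elongated chains into wax products showed the widest differences. CER1 and CER3, the partners of alkane synthesis, did not differ beyond their spread. CER1 averaged 514 ± 81.3 CPM in AP3 nuclei and 501 ± 45.8 CPM in AG nuclei, and CER3 averaged 101 ± 11.5 CPM in AP3 nuclei and 93.0 ± 2.40 CPM in AG nuclei. Their log2 fold changes were 0.04 ± 0.20 SE and 0.12 ± 0.16 SE. LACS1, an acyl-CoA synthetase that activates very-long-chain fatty acids, averaged 324 ± 55.2 CPM in AP3 nuclei and 215 ± 41.9 CPM in AG nuclei and was not called (edgeR adjusted p = 0.166).

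MAH1 (AT1G57750, chr1:21383812-21385709), the cytochrome P450 that turns alkanes into secondary alcohols and ketones, had 5.57, 12.85 and 12.25 CPM in AP3 libraries X13, X16 and X74, against 70.5, 79.2 and 130.5 CPM in AG libraries X14, X71 and X26. Every AG library lay far above every AP3 library. MAH1 was 9.14-fold lower in AP3 nuclei (log2 fold change -3.19 ± 0.36 SE, edgeR adjusted p = 0.00132).

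CER4 (AT4G33790, chr4:16204096-16207956), the acyl-CoA reductase that makes primary alcohols, had 14.6, 25.2 and 27.5 CPM in AP3 libraries X13, X16 and X74, against 111, 154 and 155 CPM in AG libraries X14, X71 and X26. It was 6.25-fold lower in AP3 nuclei (log2 fold change -2.64 ± 0.27 SE, edgeR adjusted p = 0.000755). WSD1 (AT5G37300, chr5:14767426-14770396), which joins such alcohols to fatty acids as wax esters, had 34.4, 61.8 and 76.9 CPM in AP3 libraries, against 121, 152 and 130 CPM in AG libraries, in the same order of libraries. WSD1 was 2.33-fold lower in AP3 nuclei (log2 fold change -1.22 ± 0.28 SE, edgeR adjusted p = 0.0289). In all 3 genes X13 was the lowest library of all. The WSD1 call was lost without X14 (adjusted p = 0.0549), X16 (adjusted p = 0.102), X71 (adjusted p = 0.0927) or X26 (adjusted p = 0.0660), while MAH1 and CER4 were called under each of the 14 alternatives tried.

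FOP1 (AT5G53390, chr5:21656734-21659367), a relative of WSD1 named for the folded petals of its mutant, went the other way. It had 35.9, 48.7 and 45.6 CPM in AP3 libraries X13, X16 and X74, against 10.1, 7.91 and 2.61 CPM in AG libraries X14, X71 and X26. FOP1 was 6.33-fold higher in AP3 nuclei (log2 fold change 2.66 ± 0.42 SE, edgeR adjusted p = 0.00619) and was called under each of the 14 alternatives. The proteins of WSD1 and FOP1 are 48.3% identical over the alignment.

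Ratios within a library do not depend on its depth. CER1, with about equal CPM in both domains, served as a common denominator for MAH1, CER4 and CER3. CER4 makes primary alcohols and not alkane products, so its ratio compares levels only. The ratio of MAH1 to CER1 averaged 0.0210 ± 0.0103 in AP3 libraries and 0.192 ± 0.0864 in AG libraries, and that of CER4 to CER1 averaged 0.0456 ± 0.0188 in AP3 libraries and 0.284 ± 0.0705 in AG libraries (SD, n = 3 each). Neither ratio overlapped, whereas that of CER3 to CER1 did, at 0.170 to 0.239 in AP3 libraries and 0.172 to 0.214 in AG libraries. CER1 ran only from 448.6 CPM in X26 to 607.5 CPM in X13. Division by it could not make MAH1 or CER4 overlap, so their ratios repeat their calls. The ratio of WSD1 to CER4 was 2.54 ± 0.231 in AP3 libraries and 0.971 ± 0.128 in AG libraries, so that the lower genes also differed among themselves in how far they were lower. FOP1 to WSD1 stood at 0.593 to 1.04 in AP3 libraries and 0.0201 to 0.0834 in AG libraries. Since FOP1 was higher and WSD1 lower without overlap, this ratio could not overlap.

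**Figure D3:**
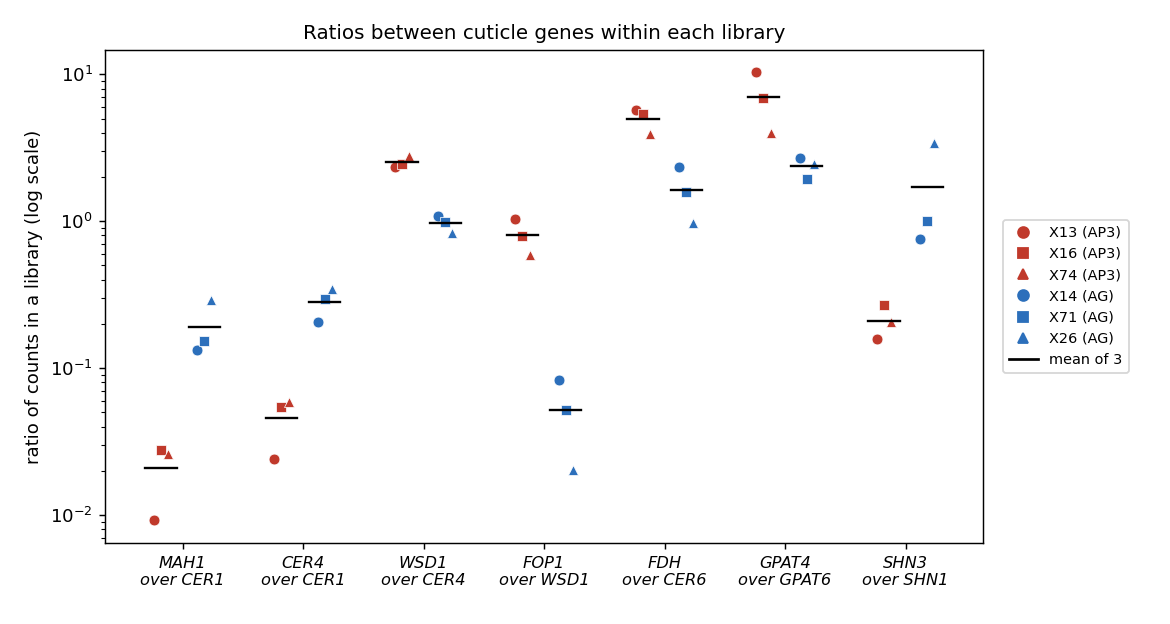
Ratios of counts between pairs of cuticle genes within each library (vertical axis, log scale), with AP3 libraries in red left of AG libraries in blue, 1 symbol per library and a bar at the mean of 3. All 7 ratios plotted are ones in which the domains do not overlap. The overlapping ratios of KCS20 to KCS2, GPAT4 to GPAT8, MYB106 to MYB16, LTPG2 to LTPG1, CER3 to CER1 and LACS2 to LACS1 are not plotted. MAH1 over CER1 is lowest in X13, at 0.00917, and highest in X26, at 0.291.

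Of the 10 cutin genes, 3 were higher in AP3 nuclei and none was lower, where 1.36% and 6.4% of all genes were. For 7 of the 10 the AP3 values lay above all AG values, as they did for 10.9% of all genes. A positive log2 fold change was found for 9 of the cutin genes. The median log2 fold change of the 10 was 0.98. Their summed level was 1280 to 1380 CPM in AP3 libraries and 422 to 855 CPM in AG libraries. HTH (AT1G72970, chr1:27452748-27455964), the HOTHEAD oxidoreductase that takes part in forming dicarboxylic cutin monomers, had 495, 405 and 345 CPM in AP3 libraries X13, X16 and X74, against 203, 130 and 96.2 CPM in AG libraries X14, X71 and X26. It was 2.91-fold higher (log2 fold change 1.54 ± 0.29 SE, edgeR adjusted p = 0.0133). The call was lost without X71 (adjusted p = 0.0590) and in the 4 libraries of the authors' table (adjusted p = 0.0566).

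GPAT4 (AT1G01610, chr1:221642-224351), an acyltransferase that links cutin monomers to glycerol, had 84.8, 86.5 and 73.7 CPM in AP3 libraries, against 48.1, 37.1 and 28.6 CPM in AG libraries, in the order given for HTH. It was 2.15-fold higher (log2 fold change 1.11 ± 0.21 SE, edgeR adjusted p = 0.0132). BDG (AT1G64670, chr1:24030743-24033674), an extracellular hydrolase-fold protein that cutin formation needs, had 39.9, 39.5 and 36.8 CPM in AP3 libraries, against 23.5, 16.4 and 11.6 CPM in AG libraries, and was 2.25-fold higher (log2 fold change 1.17 ± 0.25 SE, edgeR adjusted p = 0.0227). For HTH, GPAT4 and BDG alike, X14 was the highest and X26 the lowest of the AG libraries. The calls of GPAT4 were lost without X16 (adjusted p = 0.0530), without X71 (adjusted p = 0.0514) and in the 4 libraries (adjusted p = 0.0591). Those of BDG were lost without X13 (adjusted p = 0.0561), X16 (adjusted p = 0.0752) or X71 (adjusted p = 0.0789) and in the 4 libraries (adjusted p = 0.102). BDG overlaps the other-strand gene MGL by 38 bases, which had 6.04 CPM in AP3 nuclei and 13.4 CPM in AG nuclei.

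GPAT8, whose protein is 90.1% identical to that of GPAT4, averaged 178 ± 16.5 CPM in AP3 nuclei and 97.02 ± 29.0 CPM in AG nuclei, with an edgeR adjusted p of 0.0514. It passed under 5 of the 14 alternatives, among them without X14 (adjusted p = 0.0229). The ratio of GPAT4 to GPAT8 overlapped between the domains, at 0.404 to 0.532 in AP3 libraries and 0.371 to 0.420 in AG libraries. GPAT6, the member of the family known for the cutin of petals, was not called, with 13.1 ± 5.21 CPM in AP3 nuclei and 16.1 ± 3.99 CPM in AG nuclei (log2 fold change -0.30 ± 0.32 SE). The ratio of GPAT4 to GPAT6 was 3.96 to 10.3 in AP3 libraries and 1.95 to 2.703 in AG libraries, with no overlap.

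The remaining cutin genes did not pass the test. DCR, an acyltransferase named for defective cuticular ridges, averaged 418 ± 15.6 CPM in AP3 nuclei and 196 ± 84.8 CPM in AG nuclei, with a log2 fold change of 1.09 (edgeR adjusted p = 0.0611, and 0.0189 without X14). LACS2, which activates cutin precursors, averaged 128 ± 12.2 CPM in AP3 nuclei and 78.2 ± 19.0 CPM in AG nuclei, with an edgeR adjusted p of 0.0834. LCR (CYP86A8), a fatty acid hydroxylase, averaged 54.0 ± 4.76 CPM in AP3 nuclei and 31.5 ± 11.1 CPM in AG nuclei, with an edgeR adjusted p of 0.116. For each of the 3, the AP3 values lay above all AG values, as they did for 10.9% of all genes. DESeq2 called each higher, as it did 2.94% of all genes. CYP77A6, the in-chain hydroxylase of floral cutin, averaged 16.6 ± 3.31 CPM in AP3 nuclei and 13.2 ± 5.37 CPM in AG nuclei, and its values overlapped. ATT1 (CYP86A2) had under 3 CPM in every library and turned negative in the 4 libraries of the authors' table (log2 fold change -0.68, against 1.22 in 6 libraries).

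Among the 5 export genes, ABCG11 was the one called, where 1.36% of all genes tested were called higher and 6.4% lower. ABCG11 (AT1G17840, chr1:6142402-6146521), an ABC transporter for wax and cutin, had 119, 123 and 102 CPM in AP3 libraries X13, X16 and X74, against 76.7, 71.6 and 70.8 CPM in AG libraries X14, X71 and X26. It was 1.57-fold higher in AP3 nuclei (log2 fold change 0.65 ± 0.16 SE, edgeR adjusted p = 0.0375). The call was lost on leaving out X13 (adjusted p = 0.0897), X16 (adjusted p = 0.149), X14 (adjusted p = 0.101), X71 (adjusted p = 0.130) or X26 (adjusted p = 0.0781), and kept without X74. It was also lost in the 4 libraries of the authors' table (adjusted p = 0.130). A gene on the other strand, AT1G17850, covers 596 bases of it, with 58.8 CPM in AP3 nuclei and 51.2 CPM in AG nuclei, so its count is less certain. CER5 (ABCG12), the wax transporter that can pair with ABCG11, averaged 35.9 ± 4.35 CPM in AP3 nuclei and 36.4 ± 2.42 CPM in AG nuclei, and the ratio of ABCG11 to CER5 was 2.59 to 3.98 in AP3 libraries and 1.82 to 2.25 in AG libraries.

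LTPG1, a lipid transfer protein anchored to the plasma membrane, had 237, 235 and 215 CPM in AP3 libraries X13, X16 and X74, against 160, 122 and 79.2 CPM in AG libraries X14, X71 and X26 (log2 fold change 0.93 ± 0.25 SE, edgeR adjusted p = 0.0569). LTPG2, its partner, averaged 57.9 ± 7.50 CPM in AP3 nuclei and 28.8 ± 11.8 CPM in AG nuclei (edgeR adjusted p = 0.0641). Both were called without X14, with adjusted p of 0.0312 for LTPG1 and 0.0161 for LTPG2. Their ratio overlapped between the domains. The 2 proteins share 24.6% of aligned positions. ABCG32, the transporter of cutin precursors, averaged 137 ± 29.6 CPM in AP3 nuclei and 89.7 ± 9.58 CPM in AG nuclei (edgeR adjusted p = 0.121, and 0.0463 without X74). All 3 had AP3 values above all AG values, as did 10.9% of all genes.

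Of the 5 regulators, SHN3 was lower and the others did not pass the test, where 6.4% of all genes were called lower. SHN3 (AT5G25390, chr5:8820458-8822062), 1 of 3 AP2/ERF factors known to activate cutin and wax genes, had 2.58, 4.37 and 5.91 CPM in AP3 libraries X13, X16 and X74, against 16.8, 21.3 and 23.6 CPM in AG libraries X14, X71 and X26. It was 4.79-fold lower in AP3 nuclei (log2 fold change -2.26 ± 0.33 SE, edgeR adjusted p = 0.00399) and was called under each of the 14 alternatives. SHN2, the closest relative (68.3% identical), averaged 0.810 ± 0.131 CPM in AP3 nuclei and 3.19 ± 2.88 CPM in AG nuclei, and its difference rested largely on X26, with 6.51 CPM (edgeR adjusted p = 0.114, DESeq2 adjusted p = 0.0234). SHN1, the third factor, averaged 20.4 ± 7.17 CPM in AP3 nuclei and 16.8 ± 8.63 CPM in AG nuclei and was lowest in X26. The ratio of SHN3 to SHN1 was 0.158 to 0.269 in AP3 libraries and 0.754 to 3.42 in AG libraries. The MIXTA-like factors MYB16 and MYB106, which shape petal epidermal cells and act on cuticle genes, had log2 fold changes of -0.23 ± 0.26 SE and -0.64 ± 0.60 SE, with overlapping values.

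**Figure D4:**
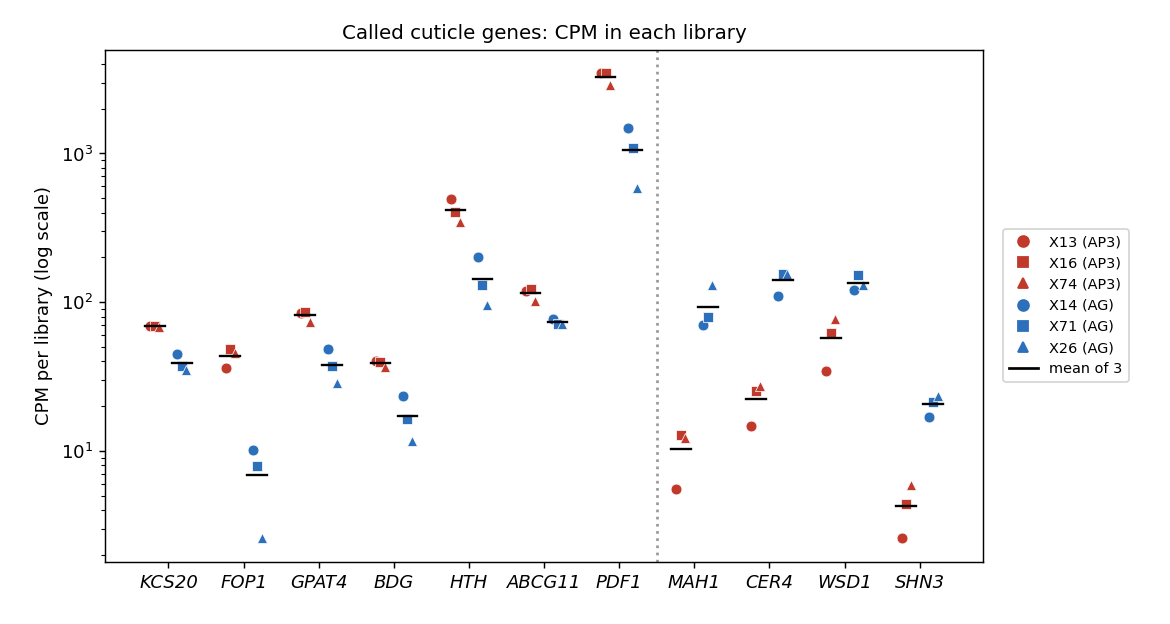
CPM in each library (vertical axis, log scale) of the 11 called cuticle genes, with AP3 libraries in red left of AG libraries in blue, 1 symbol per library and a bar at the mean of 3. Genes left of the dotted line were called higher in AP3 and genes right of it lower. In the 7 higher genes X14 is the highest and X26 the lowest AG library, and in the 4 lower genes X13 is the lowest AP3 library and X14 the lowest AG library.

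The libraries of a domain were not alike in these genes. In all 7 higher genes the AG libraries ran from X14 through X71 to X26, an order that 18 of the 38 genes showed. The AP3 transcript ran in the same order, with 58.1 CPM in X14, 41.4 CPM in X71 and 12.2 CPM in X26. X26 was the lowest AG library for 25 of the 38 genes. These orders were not counted over all genes, so whether they are particular to cuticle genes was not tested. The median coefficient of variation was 15.6% over AP3 libraries and 27.7% over AG libraries, and in the 7 higher genes 9.94% and 34.7%. In the 4 lower genes the AP3 libraries were the more variable, with 38.1% against 17.4% in the AG libraries. The part of these orders in the differences between domains was not tested.

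Epidermal marker transcripts also had positive log2 fold changes. Their sum over the AG libraries did not follow the order of the higher cuticle genes, though PDF2 and HDG1 did. The 10 epidermis markers had a median log2 fold change of 0.87, and their summed level was 746 to 1107 CPM in AP3 libraries and 479 to 660 CPM in AG libraries. This sum was 660 CPM in X14, 479 CPM in X71 and 536 CPM in X26. X26 was the lowest AG library for 2 of the 10 markers, PDF2 and HDG1, against 25 of the 38 cuticle genes and all 7 higher genes. For 5 of the 10 the values of the domains overlapped, and HDG12 and ALE2 had log2 fold changes of 0.23 and 0.12. ATML1, HDG1 and ACR4, which specify or signal in the outer cell layer, were called higher, by 2.12-fold, 1.99-fold and 2.01-fold. Set against this sum in each library, PDF1 stood at 3.13 to 3.88 in AP3 libraries and 1.09 to 2.27 in AG libraries, HTH at 0.405 to 0.463 in AP3 libraries and 0.180 to 0.307 in AG libraries, and FOP1 at 0.0324 to 0.0611 in AP3 libraries and 0.00488 to 0.0165 in AG libraries. These 3 kept domains that did not overlap. BDG did so only narrowly, at 0.0361 to 0.0493 in AP3 libraries and 0.0217 to 0.0356 in AG libraries. The ratios of GPAT4, KCS20 and ABCG11 overlapped, as did those of GPAT8, FDH and DCR. The share of epidermal nuclei in the sorted nuclei was not measured, and its part in these differences was not tested.

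Against the epidermis markers, the 4 lower genes were lower with no overlap. In CPM each was lower and the marker sum higher in AP3 libraries, both without overlap. Their ratios to the sum therefore could not overlap and add nothing to the calls. MAH1 stood at 0.00504 to 0.0164 of the sum in AP3 libraries and 0.107 to 0.244 in AG libraries, and CER4 at 0.0132 to 0.0369 in AP3 libraries and 0.168 to 0.322 in AG libraries. CER6, lower in CPM without overlap, could not overlap on this scale either. CER1 and CER3 were also lower on it without overlap, CER1 at 0.463 to 0.631 in AP3 libraries and 0.810 to 1.08 in AG libraries. The direction given for CER1 therefore depends on the scale, overlapping in CPM and lower against the epidermis markers. Most vascular markers were also lower in AP3 nuclei, as given above, and their part in the result was not tested.

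Beyond the 38 genes, 19 further cuticle genes passed the filter, of which 4 were higher and 1 was lower. Of all genes tested, 1.36% were higher and 6.4% lower. MYB94, an activator of wax synthesis, averaged 25.3 ± 3.44 CPM in AP3 nuclei and 8.96 ± 2.85 CPM in AG nuclei (edgeR adjusted p = 0.0113). MYB30, another such activator, averaged 26.5 ± 8.86 CPM in AP3 nuclei and 9.15 ± 1.75 CPM in AG nuclei (edgeR adjusted p = 0.0106). The difference was 2.82-fold for MYB94 and 2.90-fold for MYB30. ABCG13, a transporter known for the petal cuticle, averaged 125 ± 12.3 CPM in AP3 nuclei and 65.5 ± 10.5 CPM in AG nuclei (edgeR adjusted p = 0.0144). LTL1, a lipase of the GDSL type, was 2.296-fold higher (edgeR adjusted p = 0.0435). ADS4, an acyl desaturase, was the one that was lower, with 14.6 ± 4.85 CPM in AP3 nuclei and 65.2 ± 8.27 CPM in AG nuclei, 4.46-fold (edgeR adjusted p = 0.00137). MYB96, a relative of MYB94 and MYB30, was not called, at 46.0 ± 15.0 CPM in AP3 nuclei and 44.3 ± 4.91 CPM in AG nuclei.

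Of 14 further genes of the KCS family, to which CER6, FDH and KCS20 belong, 11 passed the filter, 5 were higher and none was lower. The shares over all genes tested were 1.36% and 6.4%. KCS8 had 116, 108 and 112 CPM in AP3 libraries X13, X16 and X74, against 31.1, 26.2 and 15.6 CPM in AG libraries X14, X71 and X26. It was 4.60-fold higher (edgeR adjusted p = 0.00125), a larger difference than that of any KCS gene among the 38. KCS12, KCS13, KCS14 and KCS19 had log2 fold changes of 1.45, 1.43, 1.49 and 1.19. Of 11 genes of suberin, the related polymer of roots and seed coats, only 3 passed the filter, and 1 was called, FAR1, a fatty acyl reductase, which averaged 43.4 ± 2.18 CPM in AP3 nuclei and 16.9 ± 5.37 CPM in AG nuclei (edgeR adjusted p = 0.00857).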

How the data were processed

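Nuclear RNA of sorted nuclei was amplified with SMART-Seq v4 and sequenced in 6 libraries, 3 per domain. The authors trimmed reads, mapped them with STAR 2.7.0b to TAIR10 keeping unique reads, and deposited counts of read pairs per gene, made with featureCounts (1.6.0 per the file headers) over whole genes, introns included, without strand. They also deposited variance stabilized log2-like values from DESeq2 1.24.0 for 4 libraries (X13, X16, X14 and X26), used here only to compare signs. No column was left unmapped.

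Here, 285 organelle genes were removed, and a gene was tested if 2 or more libraries each held over 10 of its reads. The test was edgeR 4.0.16 (quasi-likelihood, TMM scaling, R 4.3.3) on all 6 libraries without covariates, Benjamini-Hochberg adjusted over 20013 genes. CPM used TMM-scaled library sizes. Standard errors were back-calculated from the F statistic. Upstream windows and translated coding sequences came from RefSeq TAIR10.1, in which 33055 of 33056 matched genes had identical coordinates. Identity is from global alignment. Alternatives were DESeq2 1.42.0, other scalings and filters, organelle genes kept, the 4 libraries only, a block for them, and leaving out each library.

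All 38 genes are named. Values of every library are given for called genes and the 3 of highest level per length. Called genes of the further cuticle, KCS and epidermis lists may be named, and AP3 and AG check the labels. FAR1 of the suberin list, MYB96 and the library values of FDH and KCS8 fall outside this rule and were chosen after their values had been seen. The genes and lists were chosen with earlier results of these data known.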

Additional observations from a re-analysis of the deposited data

How the results depend on the processing

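The count of cuticle genes called higher, 7, became 15 with DESeq2, 14 without the filter on low counts and 1 (FOP1) in the 4 libraries of the authors' table, and 1 to 11 on leaving out each library, with the lowest without X71 (1), then X16 (2), and the highest without X14. The count called lower, 4, was 3 to 4 on leaving out a library and 4 to 6 otherwise. Over all genes, 273 called higher became 588 with DESeq2, 444 without the filter, 75 in the 4 libraries and 86 to 276 on leaving out a library, and 1281 called lower became 1847 with DESeq2, 1513 without the filter, 947 in the 4 libraries and 651 to 1262 on leaving out a library. The median log2 fold change of the cuticle genes, 0.31, ran from 0.15 to 0.47 on leaving out a library. Of 532 values of single genes under an alternative, 472 kept their direction and side of the threshold, 25 lost the call, 25 gained it and 10 turned sign. The values that turned were of genes not called, namely ATT1, -0.68 in the 4 libraries. On leaving out a library, the log2 fold changes that turned ran from -0.35 to 1.65 (ATT1), -0.0877 to 0.0987 (CER1), -0.0881 to 0.0726 (CER5), -0.0938 to 0.53 (SHN1), -0.0086 to 0.0745 (KCS9) and -0.69 to 0.16 (KCS2). MAH1, CER4, SHN3 and FOP1 were called under all 14 alternatives. In the authors' normalized values the sign was the same for 37 of 38 genes, all but ATT1. The cause of these changes was not tested, beyond fewer libraries entering some fits. No paired analysis was possible because the labels give the libraries no replicate numbers. With 7 to 85 reads per library for ATT1, depth limits that gene most.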
